A study of Mus musculus with 12 samples.

Results

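The p53 pathway and the integrated stress response are 2 transcriptional programmes that often accompany cell stress and cell death in the developing cortex. 40 of their genes, 22 targets and regulators of p53 and 18 genes of the integrated stress response, were examined in the embryonic mouse cortex after conditional loss of Arid1a. The members were named by gene symbol, and all 40 were found among the 51912 genes listed in the count files. Together they held 0.0922% of all gene counts. The question was how large a response of these genes to Arid1a loss the data could still contain.

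RNA came from the cerebral cortex at embryonic day 15.5 of 6 Emx1-Cre Arid1a conditional mutants and 6 animals labelled control, whose alleles and Cre status the labels do not give. Arid1a encodes a DNA-binding subunit of the BAF (SWI/SNF) chromatin remodelling complex. Emx1-Cre recombines in the progenitors of the dorsal forebrain, so excitatory neurons and radial glia lose the gene, whereas interneurons that migrate in from the ventral forebrain, microglia and blood vessels keep it. The labels put mutants 1 and 2 and controls 1 to 4 in litter 1, and mutants 3 to 6 and controls 5 and 6 in litter 2. Mutant 4 was the 1 male mutant, and controls 1 and 6 were the 2 female controls, so sex and genotype overlapped in part.

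Gene counts per library ran from 643197 in mutant 1 to 3525121 in mutant 3, and averaged 1548990 in mutants and 2241020 in controls. Arid1a itself stood at 396 to 525 CPM (gene counts corrected for the size of each library) in mutants and 464 to 575 CPM in controls. The mutant mean was 447 ± 51.0 CPM and the control mean 510 ± 42.3 CPM (± SD over 6 libraries, here and below). The log2 fold change, with its SE, was -0.30 ± 0.0958 and did not pass the test across all genes (edgeR adjusted p = 0.277). The ranges of the groups overlapped, and counts summed over the gene do not show which exons were lost. Summed markers of cortical excitatory neurons reached 3236 to 6062 CPM in mutants and 4112 to 6757 CPM in controls. In whole tissue, fewer cells of a type and less RNA per cell cannot be told apart, and a rise in a few cells is diluted by the rest.

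The p53 protein is kept low by Mdm2 and Mdm4, and DNA damage or a failure of ribosome assembly stabilises it. It then drives genes that stop the cell cycle, such as Cdkn1a, genes that kill the cell, such as Bbc3, Pmaip1 and Bax, and Mdm2 itself, which closes a feedback loop. Because p53 is controlled mainly as a protein, its targets are the usual transcript readout. The integrated stress response starts when a kinase phosphorylates the translation factor eIF2, which lowers protein synthesis while Atf4 mRNA is translated more. ATF4 protein then drives amino acid synthesis and import, and, when stress lasts, Ddit3 (CHOP), Trib3 and Chac1. In developing cortex both programmes are well known from models in which progenitors die.

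Sequence matches to an ATF4 element and to a p53 half-site were sought in the promoters of the members, whose values are given later. Windows of 250 bases before the annotated start were searched on both strands in the RefSeq table of mouse build GRCm38.p6, which held windows for 35 of the 40 members. The ATF4 element TGATGNAA was present in 4 of 17 stress response members with a window (Asns, Atf3, Chac1 and Slc7a11), in 0 of 18 p53 members, and in 3.91% of all 27025 genes with a window. The p53 half-site was present in 9 of 18 p53 members, in 1 of 17 stress response members (Atf5), and in 8.20% of all genes with a window. A match describes the letters and does not show binding. The following stretches are printed along the strand of the gene, with the match in capitals, so that the ATF4 element of Atf3 and Chac1, which lies on the other strand, reads as its reverse complement.
Atf3, chr1:191183421-191183458, minus strand: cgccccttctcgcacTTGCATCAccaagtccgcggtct
Chac1, chr2:119351034-119351071, plus strand: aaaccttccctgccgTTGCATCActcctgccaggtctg
Slc7a11, chr3:50443657-50443694, minus strand: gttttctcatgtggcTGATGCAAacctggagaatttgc
Asns, chr6:7693210-7693247, minus strand: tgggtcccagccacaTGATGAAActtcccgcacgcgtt
Mdm2, chr10:117710920-117710959, minus strand: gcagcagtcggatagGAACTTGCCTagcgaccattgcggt
Ccng1, chr11:40755447-40755486, minus strand: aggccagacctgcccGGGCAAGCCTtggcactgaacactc
Cdkn1a, chr17:29090913-29090952, plus strand: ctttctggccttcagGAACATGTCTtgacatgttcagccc

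No gene of either programme differed between mutant and control cortex at the threshold used. Of the 40 members, 27 had enough counts to be tested (14 of 22 p53 members and 13 of 18 stress response members), and 13 fell under the filter on low counts. Of the 27, 0 were called higher and 0 lower at an adjusted p under 0.05 (edgeR quasi-likelihood test with terms for litter, sex and genotype, Benjamini-Hochberg adjustment over 10678 genes). Of all genes tested 0.215% were called, 0.0562% higher and 0.159% lower. DESeq2 and limma-voom also called 0 members, where they called 0.89% and 0.178% of all genes. At an unadjusted p under 0.05, edgeR placed 2 members higher (Ddit4 and Zmat3) and 0 lower, against 3.71% of all genes higher and 5.07% lower. The ranges of mutants and controls overlapped for every one of the 27. Ranges did not overlap for 1.26% of all genes tested, and at that share 0 among 27 is not unusual.

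The fold changes pointed in both directions. Among p53 members 7 were positive and 7 negative, with a median log2 fold change of -0.06, and among stress response members 7 were positive and 6 negative, with a median of 0.05. The median over all genes tested was -0.00088. A test that misses its threshold does not show equal levels, so the 95% limits of each fold change are given below as the largest rise the data leave room for. Upper limits ran from 1.01-fold for Trp53 to 2.42-fold for Ddit4, and 23 of the 27 lay under 2-fold, a share to be read against 91.3% of all genes tested. 18 of the 27 lay under 1.5-fold, against 71.4% of all genes. The 4 members whose upper limit passed 2-fold were Pidd1 at 2.01, Ddit3 at 2.03, Atf5 at 2.28 and Ddit4 at 2.42.

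**Figure D1:**
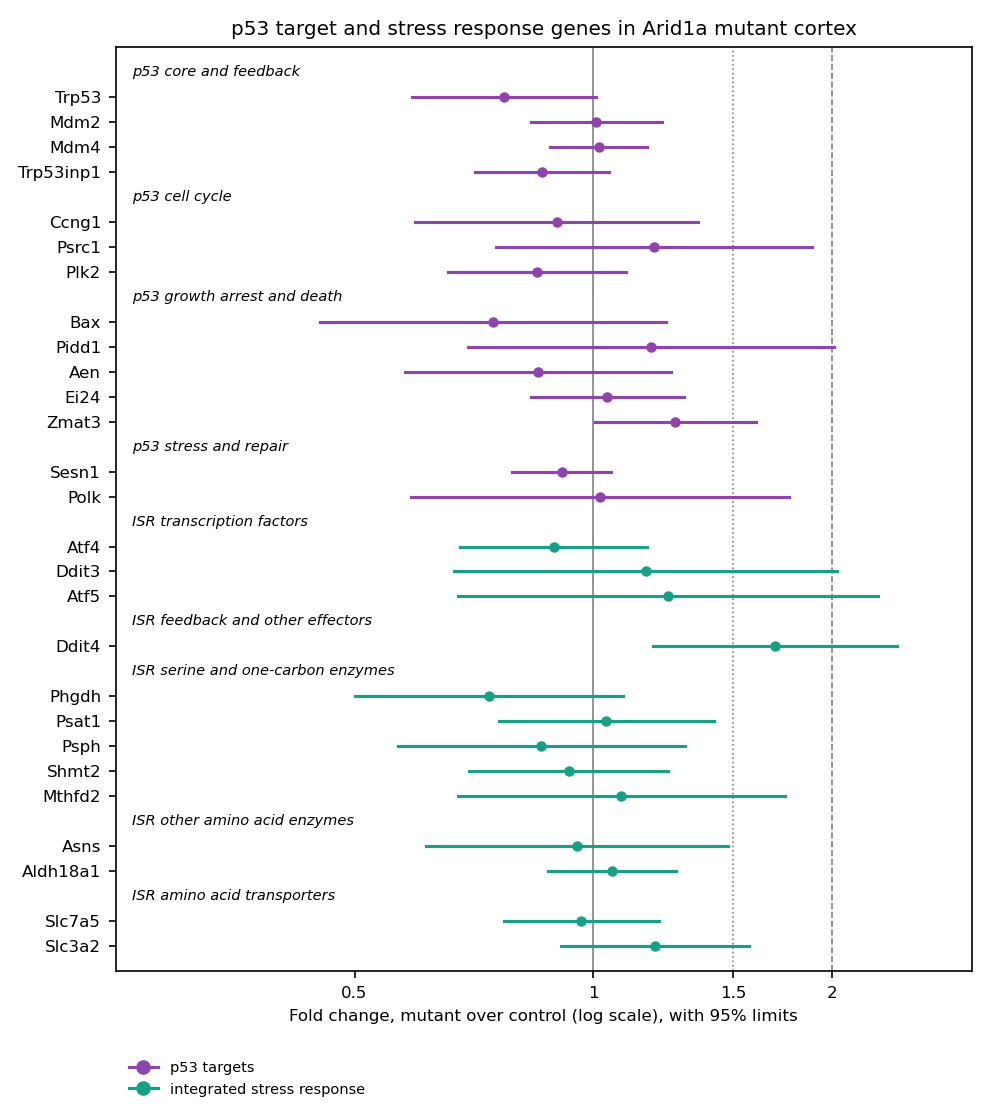
Fold change of mutant over control (log scale) with 95% limits for the 27 members tested, grouped by role, with p53 targets and integrated stress response genes in separate colours. The limits of 25 members include 1, and those of Zmat3 (1.004 to 1.60) and Ddit4 (1.19 to 2.42) lie above it.

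Trp53, which encodes p53, did not stand higher in mutants. It ran from 21.3 to 45.8 CPM in mutants with a median of 33.8, against 31.1 to 53.8 CPM in controls with a median of 33.6. The 2 highest controls, 5 and 6, were both of litter 2, and 3 mutants lay below every control. The log2 fold change was -0.37 ± 0.183 (SE, edgeR adjusted p = 0.578), with limits of 0.591 to 1.01-fold. With neither the sex nor the litter term the log2 fold change was -0.09, so the estimate behind this upper limit depended on those terms. The litter term of Trp53 was 0.47 in log2 for litter 2 over litter 1, which was not called (edgeR adjusted p = 0.166).

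The feedback regulators had narrow limits. Mdm2, the ubiquitin ligase that degrades p53, ran from 62.3 to 90.0 CPM in mutants (median 67.8) and from 64.3 to 78.7 CPM in controls (median 65.3). Mutants 3 and 5 lay above every control and mutants 1, 4 and 6 below every control, so the groups overlapped with a wider spread in mutants. The log2 fold change was 0.01 ± 0.130, and a rise of more than 1.22-fold lay outside its 95% limits. Mdm4, the p53-binding partner of Mdm2, averaged 151 ± 4.82 CPM in mutants and 148 ± 14.1 CPM in controls, with an upper limit of 1.17-fold, and had the smallest SE of all members, 0.0969. Trp53inp1, a p53-induced nuclear protein that modulates p53 activity, averaged 72.0 ± 7.45 CPM in mutants and 71.7 ± 15.7 CPM in controls. With litter and sex in the model its log2 fold change was -0.21 ± 0.133, with an upper limit of 1.05-fold. With neither the sex nor the litter term it was 0.02, so this limit too depended on those terms.

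Of the cell cycle targets, Cdkn1a, the p21 inhibitor of cyclin-dependent kinases, was too rare for the test. Its counts were 2, 1, 7, 0, 5 and 2 in mutants 1 to 6, and 8, 2, 5, 4, 2 and 5 in controls 1 to 6. No library held more than 8 counts, and the groups overlapped. Summed over libraries, 17 counts in mutants and 26 in controls corresponded to 1.81 CPM in mutants (exact Poisson 95% interval 1.05 to 2.90) and 1.99 CPM in controls (1.30 to 2.92). Their ratio was 0.907, with an interval of 0.462 to 1.74 that covers counting error only. A fit with no filter gave a similar upper limit for Cdkn1a, 1.74-fold (edgeR adjusted p = 0.940).

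The other cell cycle targets passed the filter. Ccng1, cyclin G1, which recruits a phosphatase to Mdm2, ran from 7.60 to 15.8 CPM in mutants (median 10.1) and from 9.66 to 17.6 CPM in controls (median 10.2). The groups covered nearly the same range, and the upper limit was 1.36-fold (log2 fold change -0.15 ± 0.281). Psrc1, a microtubule-associated protein, averaged 12.6 ± 4.12 CPM in mutants and 8.86 ± 3.10 CPM in controls, with limits of 0.753 to 1.88-fold. Its log2 fold change of 0.25 was 0.04 without mutant 1 and 0.73 without control 6. Plk2, a polo-like kinase, averaged 38.9 ± 10.2 CPM in mutants and 49.4 ± 8.77 CPM in controls, with an upper limit of 1.10-fold.

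Genes that carry the death signal of p53 were either not called or too rare to be tested. Bax, which permeabilises the outer mitochondrial membrane, ran from 3.85 to 9.42 CPM in mutants (median 6.65) and from 4.24 to 11.04 CPM in controls (median 6.73). Mutants lay within the span of controls except for mutant 4, and the limits were 0.452 to 1.24-fold (log2 fold change -0.42 ± 0.345, edgeR adjusted p = 0.819). Ei24, a membrane protein of the endoplasmic reticulum, averaged 35.8 ± 4.72 CPM in mutants and 37.6 ± 5.37 CPM in controls, with an upper limit of 1.30-fold. Aen, an apoptosis-enhancing nuclease, averaged 19.2 ± 7.99 CPM in mutants and 20.1 ± 2.98 CPM in controls, with an upper limit of 1.25-fold. Pidd1, a scaffold that activates caspase-2, averaged 10.3 ± 2.66 CPM in mutants and 6.95 ± 3.10 CPM in controls. All 6 mutants lay above the control mean of Pidd1, but controls 1, 5 and 6 lay within the mutants' range, and the fit gave limits of 0.695 to 2.01-fold (edgeR adjusted p = 0.933).

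Zmat3, an RNA-binding zinc finger protein that regulates splicing downstream of p53 (ENSMUSG00000027663, mm10 chromosome 3, 32334792 to 32366014, minus strand), was 1 of the 2 members at an unadjusted p under 0.05. It stood at 30.4, 36.2, 41.5, 37.2, 41.5 and 41.8 CPM in mutants 1 to 6, and at 28.4, 33.9, 36.2, 28.4, 26.6 and 30.8 CPM in controls 1 to 6. Mutants 2 to 6 lay above every control, mutant 2 by a margin of less than 0.1 CPM, and mutant 1, the library with the fewest counts, lay among the controls. The log2 fold change was 0.34 ± 0.160, with limits of 1.004 to 1.60-fold (edgeR adjusted p = 0.552). It was 0.24 in litter 1 alone, where the value rests on control 1 among the controls, and 0.46 in litter 2 alone.

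The remaining death effectors had counts of 65 or fewer over a whole group. Bbc3 (Puma), a BH3-only protein, had 28 counts in mutants, which is 2.98 CPM, and 65 in controls, which is 4.98 CPM. Every mutant lay below the control mean of Bbc3, and 3 lay below every control. The ratio was 0.598, with a counting interval of 0.369 to 0.944, but the fit with no filter, which also holds the spread between animals, gave limits of 0.353 to 1.36-fold (edgeR adjusted p = 0.905). Eda2r, a receptor of the tumour necrosis factor family, had 7 counts in mutants and 29 in controls, a ratio of 0.335 with a counting interval of 0.124 to 0.781. 4 mutants lay below every control in Eda2r, and without the filter its log2 fold change was -1.79 ± 0.818 (edgeR adjusted p = 0.546). That made Eda2r 1 of 13 members under the filter at an unadjusted p under 0.05, against 6.99% of the 24283 genes in that fit. At an adjusted p under 0.05 that fit called 0 members and 1.07% of genes.

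For the rarest p53 effectors the data leave room for large changes. Pmaip1 (Noxa), a BH3-only protein, had 5 counts in each group, and its counting interval reached 6.03-fold, against 4.13-fold in the fit with no filter. Perp, a membrane protein of desmosomes, had 7 counts in mutants and 9 in controls, with an upper limit of 3.26-fold from counting and 6.33-fold in the fit with no filter. Phlda3, an inhibitor of Akt, had 7 counts in mutants and 12 in controls, with an upper limit of 2.23-fold from counting and 2.10-fold in the fit with no filter. The death receptor gene Fas had 2 counts in mutants and 8 in controls, with an upper limit of 1.74-fold from counting and 9.09-fold in the fit with no filter. Each of these 4 genes stood below 1 CPM in both groups.

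Stress and repair targets included the member with the narrowest limits after Mdm4. Sesn1, a sestrin that restrains mTORC1, averaged 115 ± 10.3 CPM in mutants and 124 ± 12.3 CPM in controls, with limits of 0.790 to 1.05-fold. Per kilobase of exon Sesn1 had the highest level of the tested members, 28.8 CPM in mutants and 31.1 CPM in controls. Polk, a translesion DNA polymerase, averaged 11.5 ± 6.84 CPM in mutants and 13.04 ± 2.82 CPM in controls, with an upper limit of 1.76-fold. Sesn2, a sestrin induced by both p53 and ATF4, had 20 counts in mutants and 17 in controls, a ratio of 1.63 with a counting interval of 0.812 to 3.32 and an upper limit of 3.21-fold in the fit with no filter.

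**Figure D2:**
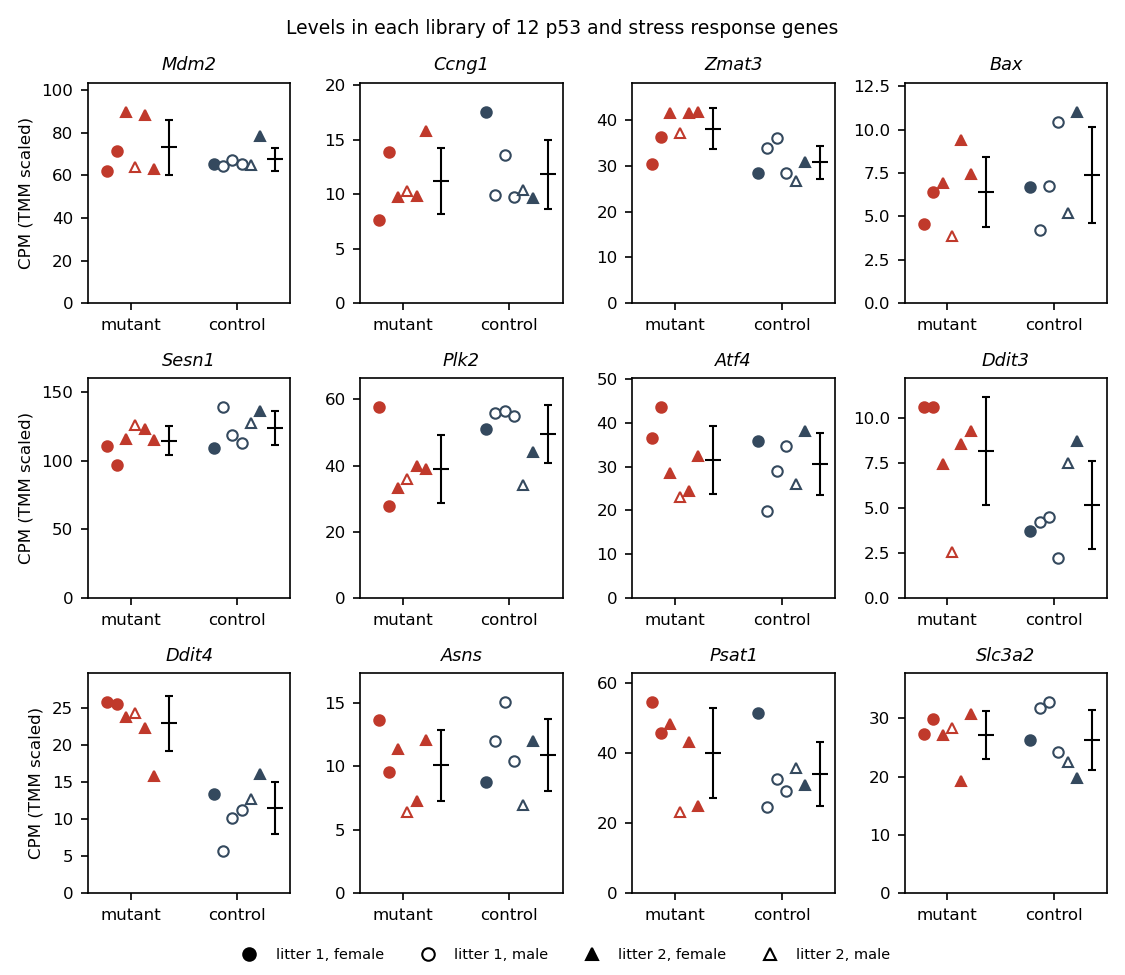
CPM of 12 members in each of the 6 mutant and 6 control libraries, with the mean and SD of each group; circles are litter 1 and triangles litter 2, filled for females and open for males. Ddit4 (15.8 to 25.8 CPM in mutants, 5.65 to 16.1 CPM in controls) and Zmat3 overlap by few libraries, and the other panels overlap broadly.

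In the integrated stress response, 3 of 5 transcription factors were tested and 0 were called. Atf4, the central factor, ran from 23.1 to 43.6 CPM in mutants (median 30.5) and from 19.8 to 38.2 CPM in controls (median 31.9). The highest library was mutant 2 and the lowest control 2, with the groups otherwise mixed. The log2 fold change was -0.17 ± 0.187, with an upper limit of 1.17-fold (edgeR adjusted p = 0.889). Since ATF4 is raised by translation, Atf4 mRNA bears on the response less directly than the targets do.

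Ddit3 and Atf5, both translated preferentially under eIF2 phosphorylation, were low, and their fold changes had opposite signs in the 2 litters. Ddit3 ran from 2.57 to 10.6 CPM in mutants (median 8.93) and from 2.24 to 8.74 CPM in controls (median 4.38). Mutants 1, 2 and 6 lay above every control, while mutant 4 lay near the lowest control. In litter 1 alone the log2 fold change of Ddit3 was 1.48 and in litter 2 alone -0.34, and the interaction of litter and genotype was -1.50 (edgeR adjusted p = 0.617). Across both litters the limits of Ddit3 were 0.668 to 2.03-fold. Atf5 averaged 7.24 ± 3.49 CPM in mutants and 6.34 ± 1.84 CPM in controls, with log2 fold changes of 1.83 in litter 1 alone and -0.32 in litter 2 alone, and limits of 0.675 to 2.28-fold. The interaction of litter and genotype was not called for Atf5 either (edgeR adjusted p = 0.803). With no male mutant in litter 1, the value for that litter rests on control 1 among the controls.

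Atf3, Cebpb, Trib3 and Chac1, which mark a strong or lasting stress response, were near the detection floor in both groups. Atf3, an early stress-induced factor, had 1 count in mutants and 5 in controls, a ratio of 0.278 whose counting interval reached 2.48-fold, against 3.13-fold in the fit with no filter. Chac1, a glutathione-degrading enzyme, had 1 count in mutants and 4 in controls, a ratio of 0.347 with an interval up to 3.51-fold, against 2.24-fold in the fit with no filter. Cebpb, a partner of CHOP, had 1 count in mutants and 0 in controls, and Trib3, a pseudokinase that feeds back on ATF4, had 2 counts in mutants and 0 in controls. The 0 counts in controls allow up to 0.230 CPM of each. No ratio of counts is given for Cebpb or Trib3, because both groups lay at or under 3 counts. The fit with no filter gave upper limits of 14.5-fold for Cebpb and 67.0-fold for Trib3, so a large rise of either stays possible. In summed counts all 4 genes stood below 0.4 CPM in mutants and controls alike. The counting interval of Trib3 in mutants reached 0.769 CPM.

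**Figure D3:**
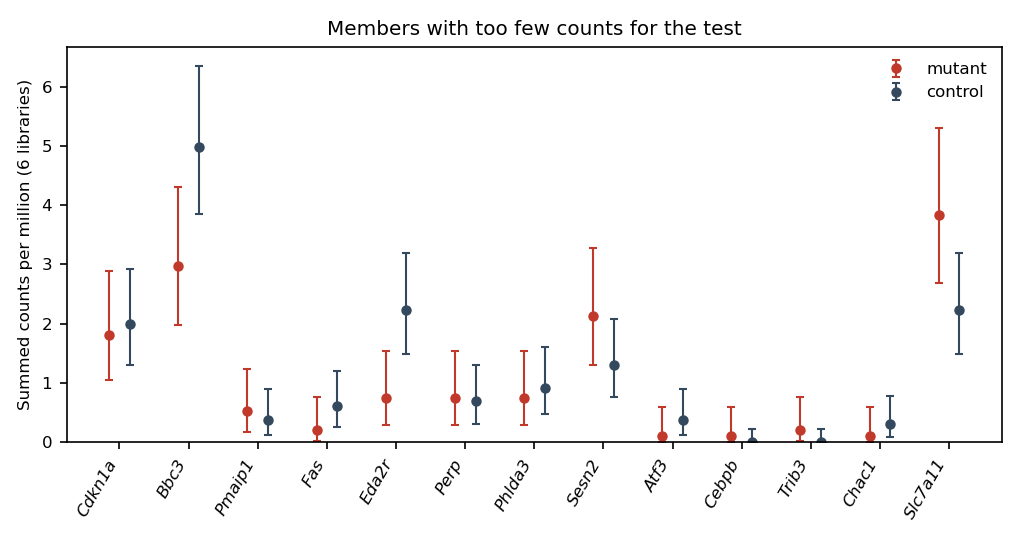
Summed CPM over 6 mutant and 6 control libraries for the 13 members under the filter; bars are exact Poisson 95% intervals, or the limit of 3 counts where the count was 0, and cover counting error only. The 4 ISR genes Atf3, Cebpb, Trib3 and Chac1 lie near 0 in both groups.

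Ddit4 (REDD1), an inhibitor of mTORC1 that ATF4, p53, hypoxia and glucocorticoids can each induce, stood furthest from equality among the 27 members (ENSMUSG00000020108, mm10 chromosome 10, 59949669 to 59951834, minus strand). It stood at 25.8, 25.5, 23.8, 24.4, 22.3 and 15.8 CPM in mutants 1 to 6, and at 13.4, 5.65, 10.2, 11.2, 12.7 and 16.1 CPM in controls 1 to 6. Mutants 1 to 5 lay above every control, and mutant 6 lay just under control 6. Mutants averaged 22.9 ± 3.73 CPM and controls 11.5 ± 3.53 CPM, from raw counts between 17 and 86 in mutants and between 8 and 35 in controls. With litter and sex in the model the log2 fold change was 0.76 ± 0.243, or 1.69-fold with limits of 1.19 to 2.42 (edgeR adjusted p = 0.276). It was 0.94 in litter 1 alone, where the value rests on control 1 among the controls, and 0.59 in litter 2 alone.

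Ddit4 was not called under the fitted model, and the call depended on the model's terms. Without the sex term its adjusted p was 0.068, and with neither the sex nor the litter term it was called at a log2 fold change of 0.96 (edgeR adjusted p = 0.0248), in a fit that called 1.32% of all genes. Without mutants 1 and 4, the 2 libraries with the fewest counts, the log2 fold change was 0.55 (edgeR adjusted p = 0.831). Markers of other cell types were set beside it. All 11 interneuron markers had positive fold changes, with sums of 346 to 854 CPM in mutants and 254 to 783 CPM in controls, and none was called. All 8 tested markers of striatum and ganglionic eminence were also positive and uncalled, with sums of 2462 to 4972 CPM in mutants and 2038 to 5017 CPM in controls. Summed red blood cell markers were 14.6 to 51.1 CPM in mutants and 9.83 to 66.1 CPM in controls. The part of sex, of depth and of these cell types in the value of Ddit4 was not tested.

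Serine and one-carbon enzymes, a metabolic arm of the ATF4 response, gave 0 calls among 5 genes tested. Phgdh, which opens serine synthesis, averaged 12.8 ± 4.82 CPM in mutants and 15.6 ± 2.85 CPM in controls, with an upper limit of 1.09-fold. Psat1, the aminotransferase of the pathway, ran from 23.1 to 54.7 CPM in mutants (median 44.5) and from 24.7 to 51.4 CPM in controls (median 31.8). The 2 lowest mutants, 4 and 6, and the highest control, 1, kept the groups of Psat1 mixed, and the upper limit was 1.42-fold. Psph, the phosphatase that completes serine synthesis, averaged 9.48 ± 3.47 CPM in mutants and 9.69 ± 2.43 CPM in controls. Its upper limit was 1.30-fold.

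Shmt2, which splits serine to glycine in mitochondria, averaged 16.8 ± 3.03 CPM in mutants and 16.9 ± 1.52 CPM in controls, with an upper limit of 1.24-fold. Mthfd2, the mitochondrial folate dehydrogenase, averaged 8.91 ± 3.57 CPM in mutants and 7.64 ± 1.38 CPM in controls, with an upper limit of 1.74-fold. Of the 5 enzymes 2 had positive and 3 negative fold changes.

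Asns, asparagine synthetase, whose promoter holds the element printed above, is a standard readout of ATF4. It ran from 6.42 to 13.7 CPM in mutants (median 10.5) and from 6.94 to 15.1 CPM in controls (median 11.2). The groups spanned almost the same values, and the log2 fold change was -0.07 ± 0.301 with an upper limit of 1.48-fold. Aldh18a1, which opens proline synthesis, averaged 55.6 ± 4.76 CPM in mutants and 50.5 ± 4.50 CPM in controls, with an upper limit of 1.27-fold.

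Of the 3 amino acid transporters 2 were tested and 0 called. Slc7a5, the light chain of a large neutral amino acid exchanger, averaged 38.1 ± 3.45 CPM in mutants and 42.1 ± 5.73 CPM in controls, with an upper limit of 1.21-fold. Slc3a2, its heavy chain, averaged 27.1 ± 4.07 CPM in mutants and 26.3 ± 5.15 CPM in controls, with an upper limit of 1.57-fold. Slc7a11, the cystine-glutamate exchanger, fell under the filter with 36 counts in mutants (3.83 CPM) and 29 in controls (2.22 CPM). Its ratio of 1.72 had a counting interval of 1.03 to 2.91, and it was the 1 member under the filter whose interval lay wholly above 1. The fit with no filter gave Slc7a11 a log2 fold change of 0.45 ± 0.552 (edgeR adjusted p = 0.940), and controls 2, 5 and 6 lay within the mutants' range.

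How small a rise could be bounded followed the level of the gene in part, and also the direction of its fold change. The median level of the tested members was 19.7 CPM. All 14 members at or above it had upper limits under 2-fold, with a median of 1.21 and a highest value of 1.60, and 96.8% of the 7121 genes tested at such levels did too. Below it 9 of 13 members had upper limits under 2-fold, with a median of 1.74, against 80.2% of 3557 genes. The median upper limit of all genes tested was 1.23 at or above 19.7 CPM and 1.58 below it. The members' limits were thus near those of other genes at or above that level, and wider below it. Pidd1, Ddit3, Atf5 and Ddit4, the members above 2-fold, all had positive fold changes. Bax, at a mean of 6.92 CPM and a log2 fold change of -0.42, had an upper limit of 1.24-fold. The parts of level and direction were not separated.

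**Figure D4:**
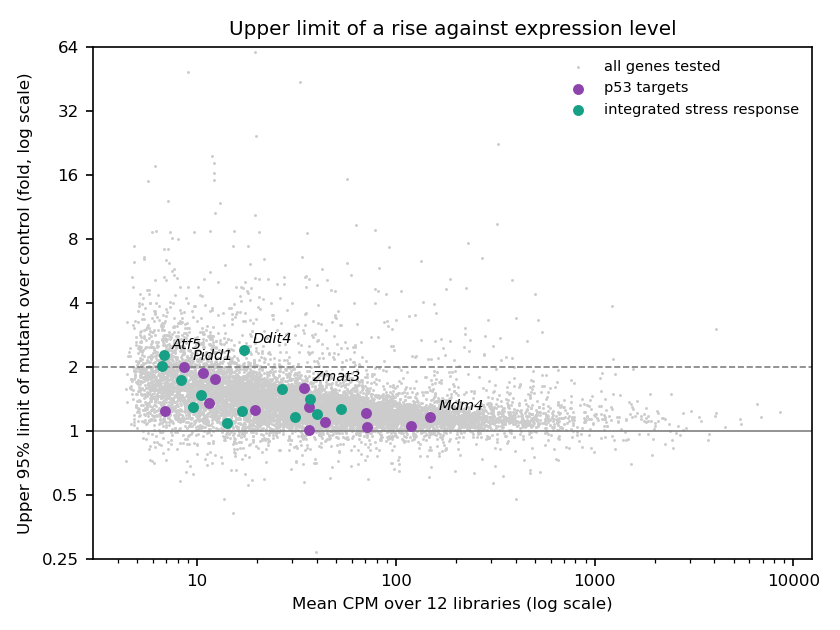
Upper 95% limit of the fold change, mutant over control, against mean CPM over 12 libraries (both log scales) for all genes tested in grey and the members in colour. Members at or above 19.7 CPM all lie under 2-fold, and the 4 above 2-fold (Pidd1, Ddit3, Atf5 and Ddit4) are among the low ones.

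These limits apply to whole cortex and loosen if a response sits in part of the tissue. If the cells that responded supplied 10% of a gene's RNA and the others did not change, the upper limit of Mdm2 would correspond to 3.195-fold in those cells, that of Bax to 3.36-fold, that of Ccng1 to 4.55-fold and that of Zmat3 to 7.02-fold. On the same terms the upper limit of Atf4 would correspond to 2.70-fold, that of Asns to 5.80-fold, that of Ddit3 to 11.3-fold and that of Ddit4 to 15.2-fold. If they supplied 50%, the values would be 1.44-fold for Mdm2, 1.47-fold for Bax, 1.34-fold for Atf4, 1.96-fold for Asns and 3.83-fold for Ddit4. The share of cells that could respond was not measured.

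Litter and sex were compared over the same members. The litter term called 0 of the 27 (edgeR, 1.31% of all genes called) and placed 4 at an unadjusted p under 0.05, where 15.4% of all genes stood. These were Trp53, Trp53inp1 (0.26 in log2 for litter 2 over litter 1) and Psph (0.56), all higher in litter 2, and Plk2 (-0.34), lower in litter 2. The sex term called 0 (edgeR, 0.00937% of all genes) and placed 2 at an unadjusted p under 0.05, against 6.95% of all genes. These were Atf4 at -0.45 and Psat1 at -0.55 in log2 for males over females (edgeR adjusted p = 0.711 and 0.704). The interaction of litter and genotype called 0 members and 0 genes of 10678, and Ddit3 was the 1 member at an unadjusted p under 0.05, where 7.27% of genes stood. Within litters the fold change had the same sign in both for 16 of the 27 members, 7 positive and 9 negative.

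Summed over the members, mutants and controls overlapped. The 22 p53 members together ran from 612 to 704 CPM in mutants and from 608 to 689 CPM in controls, with means of 639 ± 37.3 CPM in mutants and 648 ± 28.3 CPM in controls. The 18 stress response members ran from 253 to 321 CPM in mutants and from 244 to 293 CPM in controls, with means of 294 ± 26.0 CPM in mutants and 270.5 ± 16.7 CPM in controls. In these sums the most expressed genes weigh most. The median over genes of each library's deviation from the control mean, on a log2(CPM + 1) scale, was -0.069 to 0.326 in mutants for p53 members, against -0.159 to 0.181 in controls. For stress response members it ran from -0.358 in mutant 4 to 0.336 in mutant 1, against -0.140 to 0.183 in controls, so the mutants at both ends were the 2 libraries with the fewest counts.

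**Figure D5:**
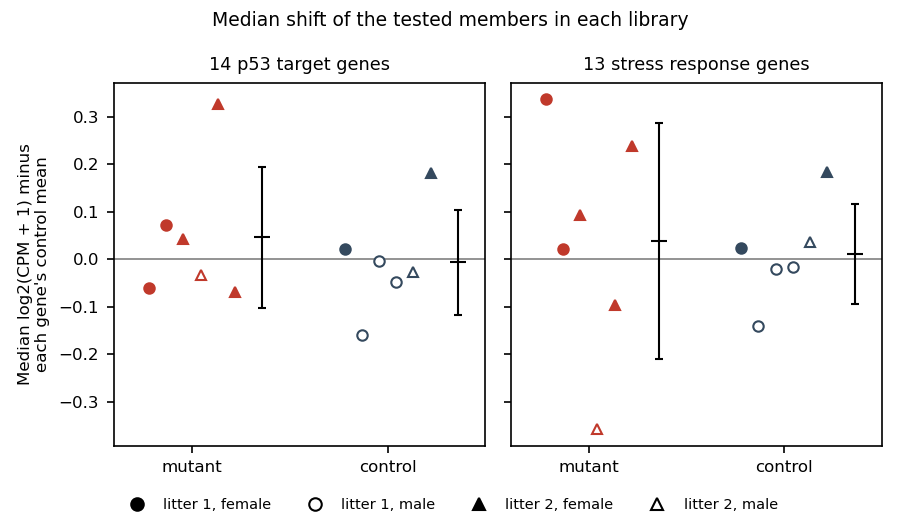
Median over the tested members of log2(CPM + 1) minus each gene's control mean, in each library, for 14 p53 target genes and 13 stress response genes, with mutants left of controls and litter and sex by symbol. The groups overlap in both panels, and the mutants of the stress response panel spread from -0.358 to 0.336.

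The wider pathways around the members gave the same count of calls. Of 37 further p53 targets 21 were tested, of 18 p53 regulators and DNA damage kinases 17, and of 36 further ATF4 targets 26, and all 13 eIF2 kinases and phosphatase subunits were tested. edgeR called 0 in each of these lists and 0.215% of all genes tested, so 0 calls is near the share of all genes. The median log2 fold changes of the lists were -0.05, -0.03, 0.06 and 0.03. At an unadjusted p under 0.05 stood Xpc (0.44, higher) and Rrm2b (-0.76, lower) among the further p53 targets and Slc6a9 (0.98, higher) among the further ATF4 targets. These 3 were picked out after their values were seen. At that p 3.71% of all genes tested were higher and 5.07% lower. The 13 eIF2 kinases and phosphatase subunits had a median upper limit of 1.42-fold and a highest of 2.01-fold, with 12 under 2-fold and 7 under 1.5-fold. Of the 2 with the highest level, Eif2ak3 (PERK), which senses misfolded protein, averaged 52.4 ± 3.14 CPM in mutants and 51.0 ± 7.19 CPM in controls, with an upper limit of 1.24-fold. Eif2ak4 (GCN2), which senses amino acid shortage, averaged 79.3 ± 14.8 CPM in mutants and 74.5 ± 10.6 CPM in controls, with an upper limit of 1.26-fold.

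Neighbouring stress programmes also gave 0 calls in edgeR, which called 0.215% of all genes tested. In lists of this size 0 calls is near that share. For the unfolded protein response of the endoplasmic reticulum 16 of 17 genes were tested, with a median log2 fold change of -0.08. Hyou1 (0.46) was higher and Ern1 (-0.36) and Dnajc3 (-0.48) lower at an unadjusted p under 0.05. They were picked out after their values were seen. Of all genes tested 3.71% were higher and 5.07% lower at that p. The chaperones Hsp90b1 and Calr had upper limits of 1.21-fold and 1.28-fold. For the heat shock response 7 of 11 genes were tested, with a median of -0.11, and Hsp90aa1 (-0.38) was lower at an unadjusted p under 0.05 (edgeR adjusted p = 0.349). For the oxidative stress response 8 of 11 were tested, with a median of 0.03 and 0 genes at an unadjusted p under 0.05.

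The death machinery itself was the list with a member near the threshold. 22 of its 32 genes were tested and edgeR called 0, against 0.215% of all genes tested. The median log2 fold change of the list was 0.09. Bcl2, the anti-apoptotic founder of its family (ENSMUSG00000057329, mm10 chromosome 1, 106538178 to 106714274, minus strand), ran from 135 to 168 CPM in mutants and from 166 to 234 CPM in controls. Every mutant except mutant 3 lay below every control, and control 3 was the lowest control. Mutants averaged 154 ± 13.8 CPM and controls 205 ± 22.6 CPM. The log2 fold change was -0.48 ± 0.102, with limits of 0.617 to 0.831-fold (edgeR adjusted p = 0.0585). It was -0.50 in litter 1 alone, where the value rests on control 1 among the controls, and -0.49 in litter 2 alone. Bcl2 was called in 6 of 24 alternative fits, among them DESeq2 (adjusted p = 0.0137), and not called by limma-voom (adjusted p = 0.0845) or without mutants 1 and 4 (edgeR adjusted p = 0.215).

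Other genes of the death machinery at an unadjusted p under 0.05, picked out after their values were seen, pointed in both directions. With Bcl2 among the lower, 2 of the 22 tested were higher and 2 lower, against 3.71% of all genes higher and 5.07% lower. The BH3-only gene Hrk had a log2 fold change of 1.01 ± 0.415 (edgeR adjusted p = 0.460) and the Bax-like Bok one of 0.71 ± 0.285 (edgeR adjusted p = 0.429). Cflar, an inhibitor of caspase-8, had a log2 fold change of -0.70 ± 0.255 (edgeR adjusted p = 0.354).

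8 members have exons that overlap another annotated gene (Cdkn1a, Bax, Ei24, Ddit3, Atf5, Cebpb, Psph and Shmt2). Whether the authors' counting used strand is not given in the sources used here, so reads of the overlapping stretches may be assigned to either gene or left out.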

How the data were processed

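Total RNA of 12 cortices was depleted of ribosomal RNA and sequenced by ClickSeq with random molecular tags, per the labels' protocols. The submitters' processing notes name STAR 2.5.2a, HTSeq 0.6.1p1, UMI-tools 0.5.3, cutadapt 1.13, edgeR 3.20.9 and bcl2fastq 2.17, with build mm10. For the annotation release and strand setting, both bearing on overlapping genes, the sources used here state nothing. The authors deposited raw counts per gene, 1 library per file. Closing entries that name no gene, 20.7 to 31.6% of a file, were left out.

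Symbols and positions were looked up in GENCODE M21, which shares the GRCm38 assembly with mm10. Of 51912 identifiers 47648 matched with version, 3985 without it and 279 not at all. filterByExpr (minimum count 10) kept 10678 genes. Counts were TMM scaled and fitted in edgeR 4.0.16 (R 4.3.3, glmQLFit with robust = TRUE, glmQLFTest) with litter, sex and genotype. The SE is the size of the log2 fold change divided by the square root of F, and 95% limits use the t distribution with each gene's total degrees of freedom (median 17.9). For Slc7a5, Aldh18a1 and Eif2ak4 the unadjusted edgeR p-values (0.950, 0.623 and 0.534) were larger than this SE implies. Their limits may thus be narrower than the test allows, and the same may hold for other genes. p-values were adjusted by Benjamini-Hochberg over all genes and called under 0.05. Levels are TMM-scaled CPM, mean ± SD over 6 libraries. For members under the filter, summed counts have exact Poisson intervals and their ratio a Clopper-Pearson interval, for counting error only. Within-litter values come from fits to that litter. The code was tested on simulated counts.

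The members and the further lists were chosen with earlier results of these data known. All members were named, and of further lists the 2 genes with the highest mean CPM or any called; not all of these are printed, and others are marked as picked out after their values were seen. Alternatives were RLE size factors, DESeq2 1.42.0, limma-voom (limma 3.58.1), no filter, no sex term, no litter term, neither term, non-robust fitting, each library left out, each litter alone, females alone, and mutants 1 and 4 left out. The labels give no animal identifiers beyond litter, so p-values measure the spread between these libraries.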

Additional observations from a re-analysis of the deposited data

Results flagged for a closer look

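In 3 of the 58 groups of 6 libraries examined, over 27 tested members and 1 summary value for each family, 1 library lay far from the other 5 by Dixon's test, and chance gives about 1 in 20. Ddit4 in mutant 6 stood at 15.8 CPM, where the other mutants stood at 22.3 to 25.8 CPM. Slc3a2 in mutant 5 stood at 19.3 CPM, where the other mutants stood at 27.1 to 30.7 CPM. Mdm2 in control 6 stood at 78.7 CPM, where the other controls stood at 64.3 to 67.0 CPM.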

How the results depend on the processing

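Over 24 alternatives the number of members called lower was 0 throughout, and the number called higher was 0 in all but the fit with neither sex nor litter, where it was 1 (Ddit4). Leaving out each library in turn gave 0 members called in either direction. The median log2 fold change ran from -0.13 to 0.03 for p53 members and from -0.11 to 0.12 for stress response members, and no alternative moved either median from its fitted value by more than the SD of library medians (0.131 and 0.190). Between 18 and 25 of the 27 had upper limits under 2-fold, and 20 to 24 with 1 library left out. The number under 1.5-fold was 10 in litter 1 alone and 16 to 18 with 1 library left out. Leaving out control 6 moved 8 of the 27 members by over 1 SE. The upper limit of Atf5 was 4.15-fold without control 6, 3.08-fold without mutants 1 and 4 and 8.94-fold in litter 1 alone. Ddit4 ran from 0.55 to 0.97 in log2 and Zmat3 from 0.24 to 0.46. Over all genes, 23 were called, against 95 by DESeq2, 19 by limma-voom, 261 with no filter, 141 with neither term and 0 without mutants 1 and 4. The causes were not tested. No paired analysis was possible because the replicate numbers were given in accession order and pair no animals; litter was a term of the model. Depth limits the 13 members under the filter.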

Other observations

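Ddit4 also answers to hypoxia and to glucocorticoids, so 2 lists of targets of those signals were added after its values were seen. Of 8 HIF-1 targets 7 were tested, with log2 fold changes from -0.20 to 0.31 and a median of 0.04. Vegfa, the angiogenic factor, averaged 42.0 ± 5.47 CPM in mutants against 42.8 ± 5.63 CPM in controls, and Ldha, a lactate dehydrogenase subunit, 43.5 ± 9.30 CPM in mutants against 38.03 ± 5.98 CPM in controls. Of 6 glucocorticoid targets 5 were tested, with log2 fold changes from -0.16 to 0.43 and a median of -0.05. Fkbp5, a co-chaperone of the glucocorticoid receptor, averaged 73.4 ± 11.8 CPM in mutants against 68.6 ± 9.92 CPM in controls. In both lists edgeR called 0 genes, against 0.215% of all genes tested. It placed 0 at an unadjusted p under 0.05, against 3.71% of all genes higher and 5.07% lower.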
